A study of Mus musculus with 18 samples.

Results

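These data describe 10 genes that mark an epithelium or its loss, measured by RNA-seq in the retinal pigment epithelium (RPE) of mice. They are the cadherins *Cdh1*, *Cdh2* and *Cdh3*, the tight junction genes *Tjp1* and *Cldn19*, the keratins *Krt8* and *Krt18*, the apical linker *Ezr*, and *Vim* and *Snai2*, which are used as mesenchymal markers. The genes were chosen by name, and all 10 were found among the 52636 genes of the count table. *Krt8* and *Krt18* moved the most: both were lower with nSREBP2 than with GFP and higher with *Lrp2* sh2 than with ctrl sh. *Vim* and *Cdh2* were higher in both of these comparisons, whereas no change of *Cdh1*, *Tjp1*, *Cldn19* or *Snai2* passed the main test in any of the 10 comparisons made.

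An epithelial sheet is held together by adherens junctions, whose cadherins bind neighboring cells, by tight junctions, which seal the space between cells, and by keratin filaments anchored at desmosomes. RPE cells form the outer blood-retinal barrier in this way, and their apical processes, rich in ezrin, wrap the tips of the photoreceptors. In an epithelial-mesenchymal transition (EMT), cells lower E-cadherin, tight junction proteins and keratins and raise N-cadherin and vimentin, under transcription factors of the Snail, Zeb and Twist families.

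Each of 6 groups had 3 libraries, and each library came from both eyes of 1 mouse of the C57BL/6 strain at postnatal day 14. One group was uninjected. The others had received, at birth, an AAV8 vector that carried GFP, nSREBP2 (the active nuclear form of the sterol regulator SREBP2), a control hairpin against LacZ (ctrl sh), or either of 2 hairpins against *Lrp2* (sh1 and sh2), each behind the RPE promoter of *Best1*. GFP was the control for nSREBP2, and ctrl sh was the control for the *Lrp2* hairpins. The tissue was the eyecup without retina, dissociated with papain, so RNA of other cells of the eyecup can be present, and in such bulk samples fewer cells of a type and less RNA per cell cannot be told apart. A gene passed a comparison when its adjusted *P*, from the quasi-likelihood test of edgeR over all genes tested, was under 0.05, and these *P*-values measure the spread between mice. Levels are CPM, the counts of a gene relative to the total of its library, scaled by TMM factors, and log2FC is the fitted log2 fold change with its SE.

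Depth was 8921885 to 13696934 counts per library. *Lrp2* had 29.7 to 42.8 CPM with *Lrp2* sh1 and 34.6 to 43.6 with sh2 against 87.7 to 166 with ctrl sh, and *Srebf2* had 208 to 233 CPM with nSREBP2 against 83.5 to 113 with GFP, each in the direction of its label. *Lrp2* was also low with nSREBP2 (25.1 to 37.7 CPM, against 87.9 to 176 with GFP). All 11 RPE markers had counts in every group, but their summed level was 2790 to 8170 CPM in uninjected libraries, 480 to 606 with GFP, 407 to 606 with nSREBP2, 1900 to 4070 with ctrl sh, 1490 to 2380 with *Lrp2* sh1 and 521 to 880 with *Lrp2* sh2. Uninjected replicate 1 was the lowest of its group in these markers and in *Krt8*, *Krt18*, *Cdh3* and *Ezr*. The 7 surface epithelium markers (*Krt5*, *Krt12*, *Krt14*, *Krt15*, *Trp63*, *Perp* and *Sfn*) summed to 34.6 to 262 CPM in the uninjected, GFP and ctrl sh libraries, but to 2200, 661 and 1570 CPM in replicate 3 of nSREBP2, *Lrp2* sh1 and *Lrp2* sh2, in that order. The 12 rod markers summed to 255 to 360 CPM with nSREBP2, 39.7 to 324 with GFP, 83.8 to 434 with *Lrp2* sh2 and 35.6 to 67.8 elsewhere. The 8 fibroblast markers had the largest sums, 18700 to 85800 CPM over all libraries, with 18700 to 30500 in uninjected libraries and 44400 to 53700 with *Lrp2* sh1. Over all libraries, melanocyte markers summed to 4880 to 8830 CPM, those of Müller glia and astrocytes to 541 to 1480 and of endothelium to 1800 to 3160. Those of smooth muscle and pericytes summed to 2210 to 4420, of macrophages to 329 to 607 and of Schwann cells to 398 to 1380. RNA of Y-linked genes was present in 6 libraries, namely uninjected replicate 3, all of nSREBP2, and *Lrp2* sh2 replicates 2 and 3. Sex and nSREBP2 therefore cannot be told apart in the comparison with GFP alone.

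**Figure D1:**
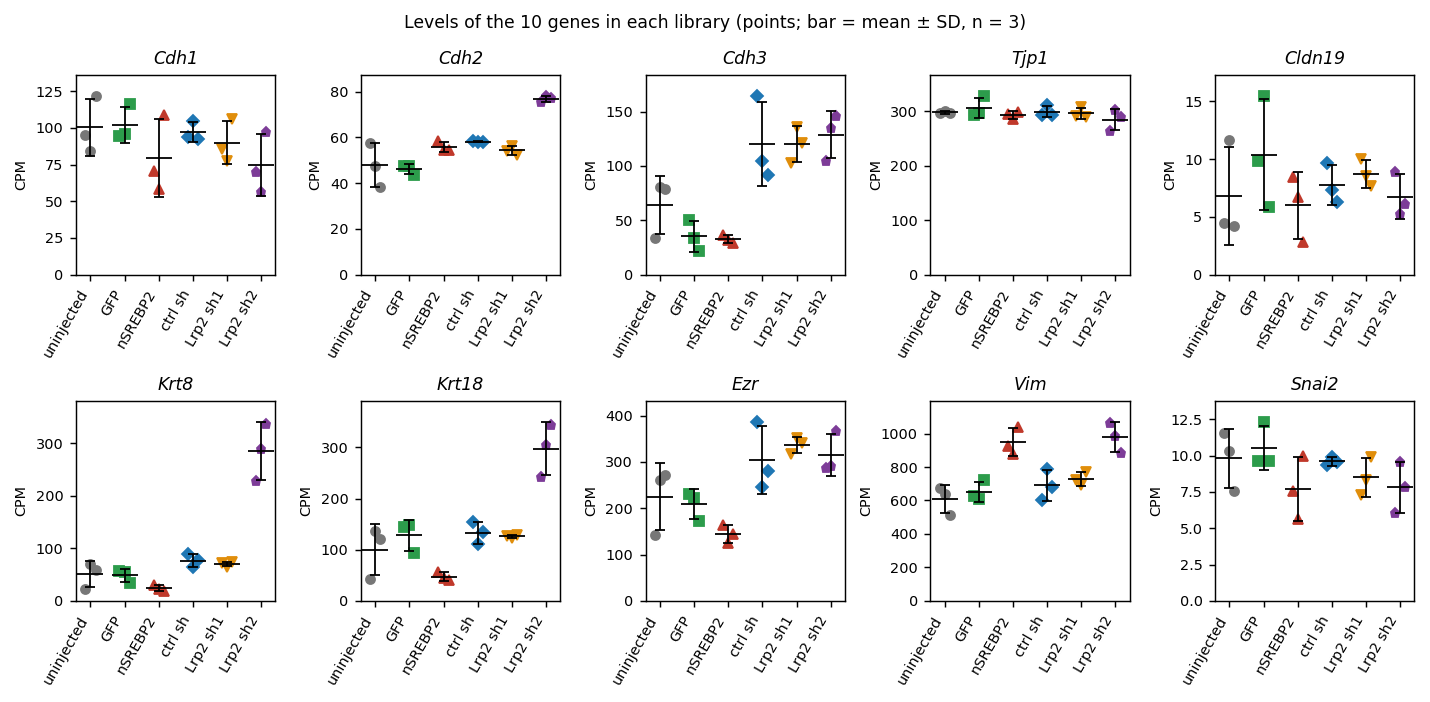
Level of each of the 10 genes (CPM, vertical axis from 0) in the 3 libraries of each group (points), with the mean and SD as bars. *Krt8* and *Krt18* were highest in the *Lrp2* sh2 libraries, *Cdh3* was highest in the libraries of the hairpin vectors, and *Tjp1* stayed between 264 and 328 CPM in all 18 libraries.

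Among all 6 groups, 6 of the 10 genes differed in some group (*Cdh2*, *Cdh3*, *Krt8*, *Krt18*, *Ezr* and *Vim*), beside 48.7% of all genes tested. The smallest adjusted *P* was that of *Krt8* (2.55e-07 by edgeR), and *Cdh1* (0.288), *Tjp1* (0.713), *Cldn19* (0.508) and *Snai2* (0.289) did not pass. Per kilobase of exon, the uninjected libraries had 128 ± 17.5 CPM of *Vim* (mean ± SD, n = 3), 70.0 ± 34.6 of *Krt18*, 68.3 ± 22.0 of *Ezr* and 38.1 ± 0.25 of *Tjp1*. They had 26.0 ± 12.5 of *Krt8*, 21.9 ± 4.23 of *Cdh1*, 14.7 ± 6.08 of *Cdh3*, 5.94 ± 1.18 of *Cdh2*, 4.85 ± 1.02 of *Snai2* and 1.60 ± 0.993 of *Cldn19*. *Vim* stood above the rest of this order, and *Snai2* and *Cldn19* stood below it with *Cdh2*. *Krt18* and *Ezr*, or *Krt8*, *Cdh1* and *Cdh3*, were neighbors within their spread. This order is that of the eyecup with all its cells, and not of RPE cells alone. In the uninjected libraries fibroblast markers summed to 18700 to 30500 CPM and RPE markers to 2790 to 8170. The part of each cell type in the order was not tested.

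*Krt8* (chr15:101996698-102004482, minus strand) and *Krt18* (chr15:102028180-102032027, plus strand) lie next to each other in GRCm38 and encode the type II and the type I keratin that pair into the filaments of simple epithelia. The promoter of *Krt18* holds CACCTG, the E-box that SNAI2 and its relatives can bind. The 30 bases around it are shown because the results turn on this keratin, with the motif in capitals (RefSeq, GRCm38.p6). The window is chr15:102027990-102028019 on the plus strand, where the motif ends 208 bases before the RefSeq start and lies upstream of the gene.
Krt18: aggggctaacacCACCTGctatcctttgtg
Read on either strand, CACCTG was in 17.2% of 32851 RefSeq promoters of 250 bases before the start. This is a match of letters and not a site of measured binding.

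The first question was whether a control vector changed these genes, and the keratins of both control groups lay within or near the spread of the uninjected mice. *Krt8* had 23.3, 69.9 and 59.5 CPM in uninjected replicates 1 to 3, 56.2, 55.3 and 34.1 with GFP, and 88.8, 64.8 and 77.5 with ctrl sh. *Krt18* had 43.9, 137 and 121 CPM in uninjected libraries, 144, 148 and 93.7 with GFP, and 154, 111 and 134 with ctrl sh. Uninjected replicate 1 was far below its partners in both genes, and the groups overlapped. None of the 10 genes passed in GFP versus uninjected, where 2.48% of all genes passed, or in ctrl sh versus uninjected, where 6.49% passed. At an unadjusted *P* under 0.05, 1 gene remained in each of these comparisons by edgeR (*Cdh3* in both), and DESeq2 called 0 in each. The 95% intervals were wide for the keratins: that of *Krt8* in GFP versus uninjected ran from -1.04 to 0.88 on the log2 scale and that of *Krt18* from -0.64 to 1.32, so changes of that size could not be detected with these mice. For *Tjp1* the interval was narrow, from -0.20 to 0.25. The RPE markers, in contrast, were lower in 8 of 11 with GFP (median log2FC -3.22), and 0 of 11 passed with ctrl sh (-1.22). Levels in the eyecup therefore do not show what each RPE cell kept, and the part of RPE content in them was not tested.

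*Cdh3* (chr8:106510891-106557297), which encodes P-cadherin, a prominent cadherin of the RPE, lies next to *Cdh1* (chr8:106603351-106670246). *Cdh3* had 33.8, 80.9 and 78.9 CPM in uninjected libraries, 49.9, 34.1 and 21.9 with GFP and 36.4, 32.3 and 29.0 with nSREBP2. It had 164, 104 and 92.2 CPM with ctrl sh, 103, 136 and 121 with *Lrp2* sh1 and 105, 135 and 146 with *Lrp2* sh2. The lowest library of the hairpin vectors (92.2 CPM) was above the highest of the other libraries (80.9 CPM). Against uninjected libraries, *Cdh3* had a log2FC of -0.88 ± 0.35 with GFP (adjusted *P* = 0.216) and 0.89 ± 0.32 with ctrl sh (0.125), so neither control vector passed. Without uninjected replicate 1, the difference for GFP was -1.19 and passed (adjusted *P* = 0.0445), and for ctrl sh it passed when all 18 libraries shared one fit. The control vectors themselves, compared after the levels had been seen, differed by a log2FC of 1.77 ± 0.29 (adjusted *P* = 0.0153, ctrl sh higher), and *Cdh2* was also higher with ctrl sh (0.33 ± 0.06, adjusted *P* = 0.032). These were 2 of the 10 genes, beside 2.68% of all genes. The change of *Cdh2* did not pass when any 1 of the 6 libraries was left out (adjusted *P* = 0.0683 to 0.112), and that of *Cdh3* did not pass without GFP replicate 2 (0.0849). The RPE markers also summed to more with ctrl sh (1900 to 4070 CPM) than with GFP (480 to 606), with 4 of 11 markers higher, and their part in the change of *Cdh3* was not tested.

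**Figure D2:**
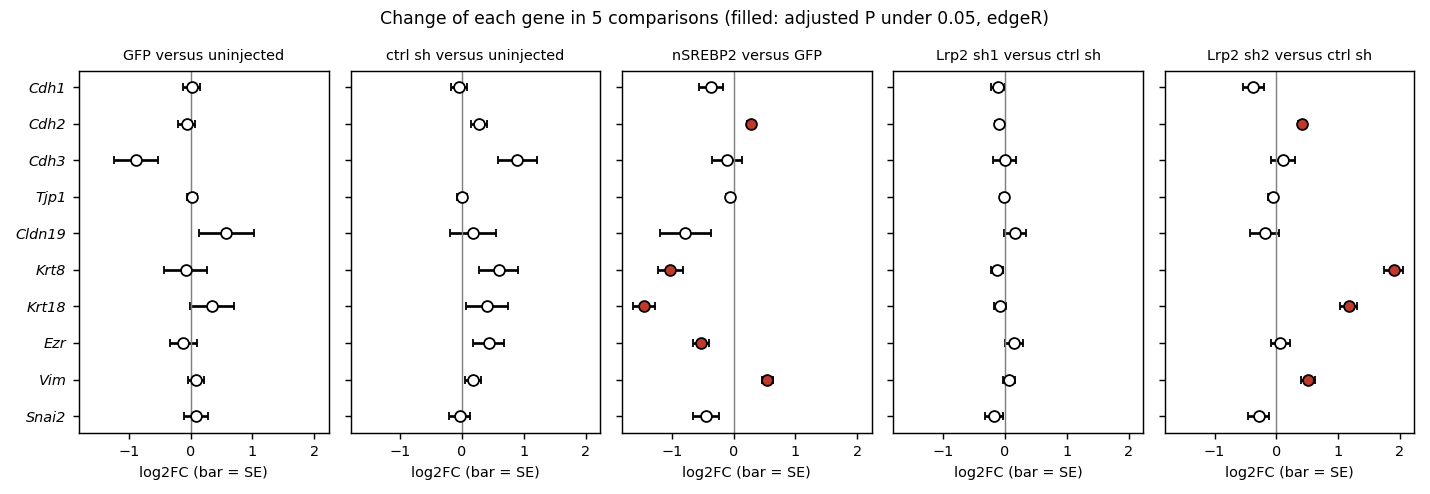
log2FC of each gene with its SE (horizontal axis) in 5 comparisons, with filled points where the adjusted *P* of edgeR was under 0.05. No gene is filled for either control vector or for *Lrp2* sh1, whereas *Krt8* and *Krt18* are filled on opposite sides of 0 for nSREBP2 and *Lrp2* sh2.

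nSREBP2 was compared with GFP to find which genes follow active SREBP2, and 5 of the 10 genes passed: *Krt8*, *Krt18* and *Ezr* were lower and *Cdh2* and *Vim* higher. In this comparison 21% of all genes passed. *Krt8* had 30.04, 22.4 and 18.9 CPM with nSREBP2, below the GFP libraries at 56.2, 55.3 and 34.1, with a log2FC of -1.02 ± 0.21 (adjusted *P* = 0.00691). *Krt18* had 57.0, 44.0 and 40.1 CPM, below the GFP libraries at 144, 148 and 93.7, with a log2FC of -1.44 ± 0.18 (adjusted *P* = 0.000458). The groups did not overlap for either keratin, and both changes passed whichever library was left out. Both also passed with sex as a term over all 18 libraries (adjusted *P* = 0.0301 for *Krt8* and 0.00531 for *Krt18*). Only the uninjected and *Lrp2* sh2 groups held both sexes and inform that term, so it cannot separate sex from nSREBP2 here. *Ezr*, whose product ezrin ties the apical membrane to actin, had 164, 125 and 144 CPM with nSREBP2 against 232, 223 and 173 with GFP. The log2FC of *Ezr* was -0.53 ± 0.12 (adjusted *P* = 0.0144), but it did not pass without GFP replicate 1 or 2 or nSREBP2 replicate 2 (0.0514 to 0.0576) or when all 18 libraries shared one fit (0.071), also with sex as a term (0.064).

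*Vim*, which encodes the filament protein of mesenchymal cells, had 925, 877 and 1041 CPM with nSREBP2 and 625, 608 and 722 with GFP. The groups did not overlap, and the log2FC was 0.54 ± 0.09 (adjusted *P* = 0.00262). The summed level of 8 fibroblast markers moved with it, from 34700 to 44000 CPM with GFP to 71700 to 85800 with nSREBP2, with 8 of 8 markers higher, and its part in the change of *Vim* was not tested. The 8 macrophage markers also summed to more with nSREBP2 (565 to 607 CPM) than with GFP (358 to 416). *Cdh2*, the gene of N-cadherin, had 58.5, 54.6 and 54.5 CPM against 47.7, 47.3 and 43.5, with a log2FC of 0.28 ± 0.07 (adjusted *P* = 0.0182). This small change did not pass without nSREBP2 replicate 1 (0.0725) or by DESeq2 (0.0517). *Snai2*, whose product represses E-cadherin, had 7.53, 5.60 and 9.99 CPM against 9.64, 12.3 and 9.60, and its log2FC of -0.44 ± 0.21 did not pass (adjusted *P* = 0.18).

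*Cdh1* encodes E-cadherin, and within each group but GFP it was highest in the library with the most surface epithelium markers. That library was replicate 3 of nSREBP2, *Lrp2* sh1, *Lrp2* sh2 and the uninjected group (in the last, 122 CPM of *Cdh1* and 262 of the markers). In ctrl sh that library was replicate 2 (105 CPM of *Cdh1* and 262 of the markers). *Cdh1* had 70.9, 58.3 and 109 CPM with nSREBP2 against 94.1, 95.9 and 116 with GFP. The groups thus overlapped only through nSREBP2 replicate 3, the library with 2200 CPM of these markers. The log2FC was -0.36 ± 0.19 with all libraries (adjusted *P* = 0.235) and -0.65 without nSREBP2 replicate 3 (0.00492). With *Lrp2* sh2, *Cdh1* had 69.7, 56.2 and 97.5 CPM against 93.7, 105 and 92.6 with ctrl sh, and the high library was again replicate 3, with 1570 CPM of the markers. The log2FC was -0.37 ± 0.16 with all libraries (adjusted *P* = 0.153) and -0.62 without *Lrp2* sh2 replicate 3 (0.005). These libraries were singled out after seeing the data. The GFP libraries did not follow this order, since *Cdh1* was highest in GFP replicate 3 (116 CPM), which had the lowest sum of these markers in its group (38.3 CPM). For the simple keratins the picture was mixed. nSREBP2 replicate 3 had the lowest *Krt8* and *Krt18* of the series. Replicate 3 was the highest of its group in both with *Lrp2* sh2 (338 and 345 CPM) and *Lrp2* sh1 (74.4 and 130 CPM). *Lrp2* sh2 replicate 2, with 197 CPM of the markers, had more of both than replicate 1, with 412 CPM.

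**Figure D3:**
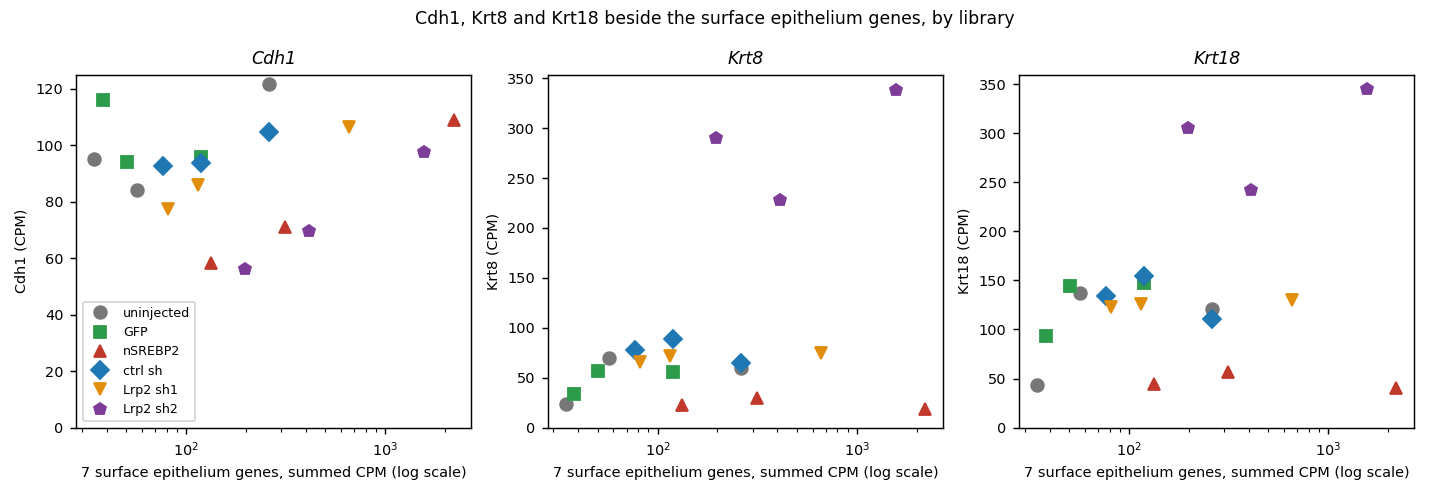
*Cdh1*, *Krt8* and *Krt18* (CPM, vertical axes from 0) against the summed CPM of 7 surface epithelium markers (horizontal axis, log scale) in the 18 libraries, by group. Within nSREBP2 and *Lrp2* sh2, *Cdh1* was highest in the library with the most marker RNA (109 and 97.5 CPM). *Krt8* was lowest there in nSREBP2 (18.9 CPM) and highest there in *Lrp2* sh2 (338 CPM).

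The hairpins against *Lrp2* were compared with ctrl sh to find the effect of less *Lrp2*, which encodes the endocytic receptor megalin. With *Lrp2* sh1, none of the 10 genes passed by edgeR (5.33% of all genes did), none had an unadjusted *P* under 0.05, and DESeq2 called 0. *Krt8* had 71.8, 65.6 and 74.4 CPM and *Krt18* 126, 123 and 130 CPM with *Lrp2* sh1, within the range of ctrl sh. The 95% intervals of the log2FC ran from -0.42 to 0.16 for *Krt8* and from -0.36 to 0.20 for *Krt18*. Only *Ezr* passed with 1 library left out (log2FC 0.35, adjusted *P* = 0.0174, without ctrl sh replicate 1).

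With *Lrp2* sh2, 4 of the 10 genes were higher than with ctrl sh and none lower, beside 18.1% of all genes. *Krt8* had 228, 290 and 338 CPM against 88.8, 64.8 and 77.5, a log2FC of 1.90 ± 0.15 (adjusted *P* = 0.000105). *Krt18* had 242, 306 and 345 CPM against 154, 111 and 134, a log2FC of 1.17 ± 0.14 (adjusted *P* = 0.000741). All *Lrp2* sh2 libraries were above every other library of the series in both genes. With sex as a term over all 18 libraries, *Krt8* passed (log2FC 1.60, adjusted *P* = 0.00303) and *Krt18* did not (0.86, 0.0921). The *Lrp2* sh2 library without Y-linked RNA, replicate 1, had 228 CPM of *Krt8* and 242 of *Krt18*, also above each ctrl sh library.

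*Vim* had 1064, 983 and 884 CPM with *Lrp2* sh2 against 605, 789 and 682 with ctrl sh, a log2FC of 0.51 ± 0.11 (adjusted *P* = 0.0123), which did not pass without ctrl sh replicate 3 (0.0593). The fibroblast marker sum overlapped between these groups (42300 to 51000 CPM with *Lrp2* sh2 and 33000 to 46900 with ctrl sh), with 4 of the 8 markers higher. *Cdh2* had 75.4, 78.0 and 77.02 CPM against 58.6, 58.1 and 57.9, and this tight difference (log2FC 0.41 ± 0.06, adjusted *P* = 0.00175) passed whichever library was left out. The rod markers were also higher (43.6 to 65.7 CPM with ctrl sh, 10 of 12 passing), and their part in the change of *Cdh2* was not tested. *Ezr*, at 287, 292 and 367 CPM against 386, 246 and 280, overlapped and did not pass (log2FC 0.06 ± 0.16, adjusted *P* = 0.828).

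The hairpins differed from each other in these 4 genes. *Lrp2* sh2 versus *Lrp2* sh1 had a log2FC of 2.02 ± 0.13 for *Krt8* (adjusted *P* = 5.19e-06), 1.24 ± 0.11 for *Krt18* (4.68e-05), 0.51 ± 0.06 for *Cdh2* (0.000265) and 0.43 ± 0.08 for *Vim* (0.00359), in a comparison where 22.4% of all genes passed. *Lrp2* itself overlapped between the hairpins (29.7 to 42.8 CPM with sh1 and 34.6 to 43.6 with sh2). With sex as a term, the difference in *Krt18* did not pass (0.94, adjusted *P* = 0.062), and that in *Krt8* did (1.73, 0.00158).

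The response of the keratins to nSREBP2 and to *Lrp2* sh2, each against its own control, differed by a log2 of -2.92 ± 0.40 for *Krt8* (adjusted *P* = 0.000277, edgeR fit of all libraries) and -2.61 ± 0.40 for *Krt18* (0.000669). This contrast was added after the levels had been seen, and 5.63% of all genes passed it. The responses of *Vim* differed by 0.04 ± 0.16 (adjusted *P* = 0.928) and those of *Cdh2* by -0.13 ± 0.14 (0.679).

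*Krt8* and *Krt18* kept a narrow proportion within each group while their levels varied. Per kilobase of exon, the *Krt8* level divided by that of *Krt18* was 0.361 to 0.389 in uninjected libraries, 0.267 to 0.286 with GFP and 0.345 to 0.387 with nSREBP2. It was 0.422 to 0.428 with ctrl sh, 0.391 to 0.421 with *Lrp2* sh1 and 0.690 to 0.719 with *Lrp2* sh2. The range of GFP lay below all other groups and that of *Lrp2* sh2 above them, so *Krt8* rose more than *Krt18* with *Lrp2* sh2. Uninjected replicate 1, with the lowest levels of its group, had a ratio of 0.389. *Krt8* shares 101 of its 1958 exon bases with *Gm36026* on the other strand, and the use of strand in counting is not stated, so part of its counts is uncertain, as for 90 bases of *Cldn19* that overlap *Gm12927*.

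**Figure D4:**
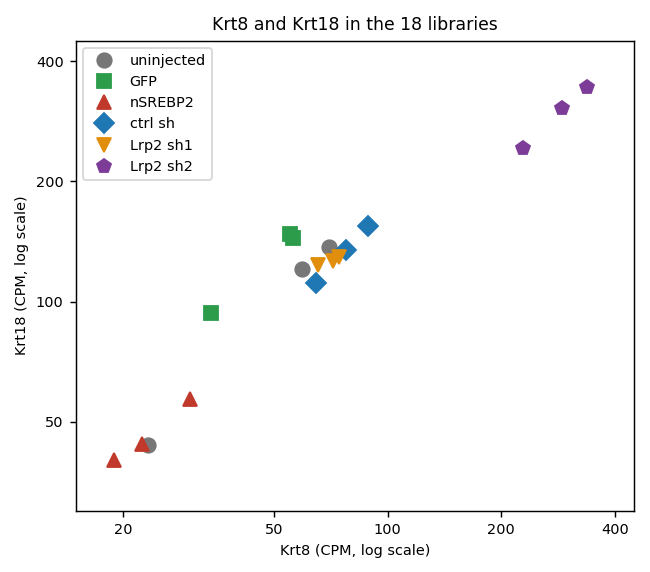
*Krt18* against *Krt8* (both CPM, log scales) in the 18 libraries, by group. The libraries fall along a line from nSREBP2 and uninjected replicate 1 (*Krt8* 18.9 to 30.04 CPM) to *Lrp2* sh2 (228 to 338 CPM), with GFP above the line and *Lrp2* sh2 below it.

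Against uninjected libraries, the keratins were again lower with nSREBP2 and higher with *Lrp2* sh2. In nSREBP2 versus uninjected, *Cdh3* (log2FC -0.99 ± 0.28, adjusted *P* = 0.0296), *Krt8* (-1.10 ± 0.35, 0.0456) and *Krt18* (-1.10 ± 0.35, 0.046) were lower and *Vim* was higher (0.63 ± 0.12, 0.00502), 4 of 10 genes beside 26.2% of all. The 3 lower genes did not pass by DESeq2 (adjusted *P* = 0.0675 to 0.12) or when any library but uninjected replicate 1 was left out, and without that replicate *Krt8* (0.000354) and *Krt18* (8.42e-05) passed by more. In *Lrp2* sh2 versus uninjected, *Krt8* (2.49 ± 0.34, 0.00159), *Krt18* (1.57 ± 0.35, 0.0126), *Cdh3* (1.0 ± 0.28, 0.0346), *Cdh2* (0.68 ± 0.13, 0.00698) and *Vim* (0.68 ± 0.12, 0.00559) were higher, 5 of 10 beside 22.7%. Here *Cdh3* did not pass by DESeq2 (0.0667) or without *Lrp2* sh2 replicate 2 (0.096) or 3 (0.0996). In *Lrp2* sh1 versus uninjected, only *Cdh3* passed (0.89 ± 0.26, adjusted *P* = 0.0363), beside 24.5% of all genes, and DESeq2 called 0. These comparisons share the uninjected libraries.

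*Tjp1*, which encodes the tight junction scaffold ZO-1, had the smallest span of the 10 genes relative to its level, 264 to 328 CPM over the series, and its 95% interval in nSREBP2 versus GFP ran from -0.25 to 0.13 on the log2 scale. *Cldn19*, a claudin of the RPE tight junction, was low and varied within groups: 4.49, 11.7 and 4.26 CPM in uninjected libraries, 9.83, 15.5 and 5.87 with GFP, and 8.46, 6.74 and 2.81 with nSREBP2. Its log2FC for nSREBP2 was -0.78 ± 0.41 (adjusted *P* = 0.216, 95% interval -1.90 to 0.35), so a fall of more than 1 could not be told from none. Without a filter on low counts this change passed (adjusted *P* = 0.0484). *Snai2* ran from 5.60 to 12.3 CPM over the series, and every pair of vector and control overlapped.

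Over the 18 libraries, the genes whose log2 CPM was most like that of a member, by Pearson's r as a description, included other members. For *Krt8* they were *Wdr6* (r = 0.967), *Krt18* (0.958) and *Wwc1* (0.946), and for *Cdh3* they were *Tbc1d2* (0.94), *Ezr* (0.911) and *Azin2* (0.908). *Azin2* (0.946), *Prepl* (0.937) and *Pebp1* (0.934) were most like *Ezr*, and *Il13ra1* (0.949), *Anxa3* (0.949) and *Ttc9* (0.933) most like *Vim*. After the group means were removed, *Krt8* and *Krt18* (r = 0.992), *Krt18* and *Ezr* (0.9) and *Cdh3* and *Ezr* (0.886) still varied together, and uninjected replicate 1 was low in all 4 genes. The libraries share their RPE content as well as these genes, and that part was not tested.

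Other genes of the same structures were taken from 9 lists of 117 genes in all. In GFP versus uninjected, 2 of 95 tested genes passed (2.11%, beside 2.48% of all genes): *Cldn2*, a pore-forming claudin, was lower (log2FC -2.77 ± 0.49, adjusted *P* = 0.0241) and the junctional adhesion molecule *Jam2* higher (0.37 ± 0.07, 0.0332). In ctrl sh versus uninjected, 7 of 102 passed (6.86%, beside 6.49%), among them the tight junction gene *Ocln* (1.48 ± 0.16, 0.00361) and the polarity gene *Crb2* (0.97 ± 0.16, 0.015), both higher. With nSREBP2, 33 of 107 genes were higher and 16 lower (45.8% in all, beside 21%). Here 10 keratins and 9 epithelial regulators were tested, against 4 and 5 in GFP versus uninjected. Several thus entered through their nSREBP2 level and could hardly pass as lower. With *Lrp2* sh1, 3 of 103 were higher and 6 lower (8.74%, beside 5.33%), and with *Lrp2* sh2, 23 of 109 were higher and 12 lower (32.1%, beside 18.1%). For *Lrp2* sh2, 10 epithelial regulators and 17 tight junction genes were tested, against 7 and 15 for *Lrp2* sh1, which had the same control. Some thus entered through their *Lrp2* sh2 level and could hardly pass as lower.

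Some tight junction genes were lower with each cargo than with its control. With nSREBP2, 7 of 16 tested were lower and 2 higher, with *Lrp2* sh1 4 of 15 were lower and none higher, and with *Lrp2* sh2 4 of 17 were lower and 5 higher, beside 21%, 5.33% and 18.1% of all genes in either direction. The median log2FC of the list was -0.22, -0.27 and -0.11, beside -0.02, -0.01 and 0.01 over all genes. *Ocln*, which encodes occludin, had 32.0, 40.0 and 43.3 CPM with ctrl sh and 18.2, 18.3 and 18.2 with *Lrp2* sh1 (log2FC -1.07 ± 0.11, adjusted *P* = 0.0012 by edgeR). With *Lrp2* sh2 it had 19.9, 19.9 and 30.7 CPM. It had 19.7, 17.9 and 14.7 CPM with GFP and 6.14, 7.18 and 10.8 with nSREBP2, and 11.3, 15.7 and 14.0 in uninjected libraries, so the hairpin libraries did not fall below the uninjected ones. *Ocln* and *Cldn1* were lower in all 3 comparisons. *Cldn5*, the claudin of endothelial cells, and *Jam3* were lower with nSREBP2 and *Lrp2* sh2. The endothelium markers were lower there too, with sums of 2050 to 2290 CPM with nSREBP2 against 2460 to 3160 with GFP (6 of 9 lower) and of 1800 to 2000 with *Lrp2* sh2 against 2640 to 2770 with ctrl sh (7 of 9 lower), and their part in the changes of this list was not tested. Among the genes that rose, *Cldn4* (3.24 ± 0.93 with nSREBP2 and 3.38 ± 0.88 with *Lrp2* sh2) and *Cldn7* with nSREBP2 are claudins of barrier epithelia, and *Cldn4* was highest in replicate 3 of both groups (16.1 and 16.7 CPM), the libraries with the most surface epithelium markers.

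With nSREBP2, keratins of stratified and surface epithelia were higher, unlike *Krt8* and *Krt18*. Of 10 tested keratins of this list, 8 were higher and none lower, beside 21% of all genes in either direction, but several of them were at or near 0 with GFP and were tested because of their level with nSREBP2. *Krt17* had 11.7, 2.10 and 78.2 CPM with nSREBP2 against 0.09, 0.27 and 0 with GFP. *Krt14*, of basal cells, had 62.8, 20.9 and 608 CPM with nSREBP2 against 0, 2.92 and 0 with GFP. *Krt14* had 28.0, 13.3 and 244 CPM with *Lrp2* sh2 against 8.77, 38.6 and 0.51 with ctrl sh, where the groups overlapped and it was not among the passing genes. Replicate 3 held most of this RNA in both groups, and *Krt5*, *Krt14* and *Krt15* are also on the list of surface epithelium markers, whose part in the change was not tested. With *Lrp2* sh2, *Krt7*, of simple epithelia, was higher with 9.48, 8.66 and 46.7 CPM against 0.79, 5.70 and 1.35 (log2FC 3.05 ± 0.80, adjusted *P* = 0.027), as was *Krt80* (1.70 ± 0.37, 0.0125). Of 8 desmosome genes, 4 were higher and 1 lower with nSREBP2 (beside 21% of all genes) and 3 were higher with *Lrp2* sh2 (beside 18.1%). *Dsp*, which encodes desmoplakin, had 56.6, 23.4 and 430 CPM with nSREBP2 against 7.86, 18.1 and 5.35 with GFP (log2FC 4.05 ± 0.99, adjusted *P* = 0.0171), and *Dsg2*, a desmoglein of simple epithelia, had 12.98, 8.66 and 19.98 CPM with *Lrp2* sh2 against 2.23, 2.26 and 0.93 with ctrl sh (2.93 ± 0.37, 0.000837). The rise of *Dsg2* did not depend on replicate 3 alone, since each of the 3 libraries was above every ctrl sh library.

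Among apical and polarity genes, 2 of 20 were higher and 4 lower with nSREBP2, and 2 higher and 5 lower with *Lrp2* sh2. The shares over all genes were 21% and 18.1% in either direction. *Crb3*, the epithelial member of the crumbs family, was lower with both hairpins than with ctrl sh (2.77, 3.39 and 3.99 CPM with sh1 and 2.39, 2.02 and 3.33 with sh2, against 7.34, 6.17 and 6.15 with ctrl sh), with a log2FC of -0.96 ± 0.19 and -1.33 ± 0.22. Against uninjected libraries *Crb3* passed with neither hairpin, and it was higher with ctrl sh than with GFP. *Crb1*, which photoreceptors and Müller glia also express, was higher with nSREBP2 (1.36 ± 0.28) and *Lrp2* sh2 (2.94 ± 0.64), where the rod markers were also high, and the part of rod RNA in it was not tested. Among epithelial regulators, *Spint1*, an inhibitor of membrane proteases, was higher with nSREBP2 (4.13 ± 0.64, adjusted *P* = 0.00168) and *Lrp2* sh2 (2.55 ± 0.45, 0.00436), and *St14*, its target matriptase, with both hairpins (2.09 ± 0.28 and 1.76 ± 0.38). *Spint1* averaged 0.49 CPM with GFP and was tested there because of its level with nSREBP2 (8.40 CPM). *Mpp5* (0.38 ± 0.07), a polarity scaffold, was higher with *Lrp2* sh1 and *Pkp4* (-0.32 ± 0.06), a plakophilin, lower. Among adherens junction genes, *Cdh13* (0.67 ± 0.17) and *Cdh11* (0.47 ± 0.08), a cadherin of mesenchymal cells, were higher with nSREBP2, and *Ctnna2* (1.22 ± 0.30) and *Vcl* (0.52 ± 0.08), which encodes vinculin, with *Lrp2* sh2.

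Of the EMT transcription factors, 2 of 9 tested were higher with nSREBP2, beside 21% of all genes in either direction: *Twist1* (26.0, 20.5 and 22.2 CPM against 13.2, 14.0 and 18.4, log2FC 0.59 ± 0.15, adjusted *P* = 0.0186) and *Tcf4* (0.48 ± 0.07, 0.00127). With *Lrp2* sh2 only *Foxc1* passed, beside 18.1% of all genes, and was lower (-0.26 ± 0.07, 0.0272). *Snai1* had 16.5 to 22.5 CPM with GFP and 16.6 to 18.3 with nSREBP2, and *Zeb1* 126 to 137 and 137 to 150. The mesenchymal effectors moved both ways: 6 of 12 were higher and 3 lower with nSREBP2, and 4 higher and 2 lower with *Lrp2* sh2. The shares over all genes were again 21% and 18.1%. *Acta2*, which encodes smooth muscle actin, was higher with *Lrp2* sh2 (0.79 ± 0.11, 0.00154) and was among the lower genes with nSREBP2. *Thy1*, of fibroblasts, was higher with nSREBP2 (1.35 ± 0.19, 0.000885), where the fibroblast markers were also higher.

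**Figure D5:**
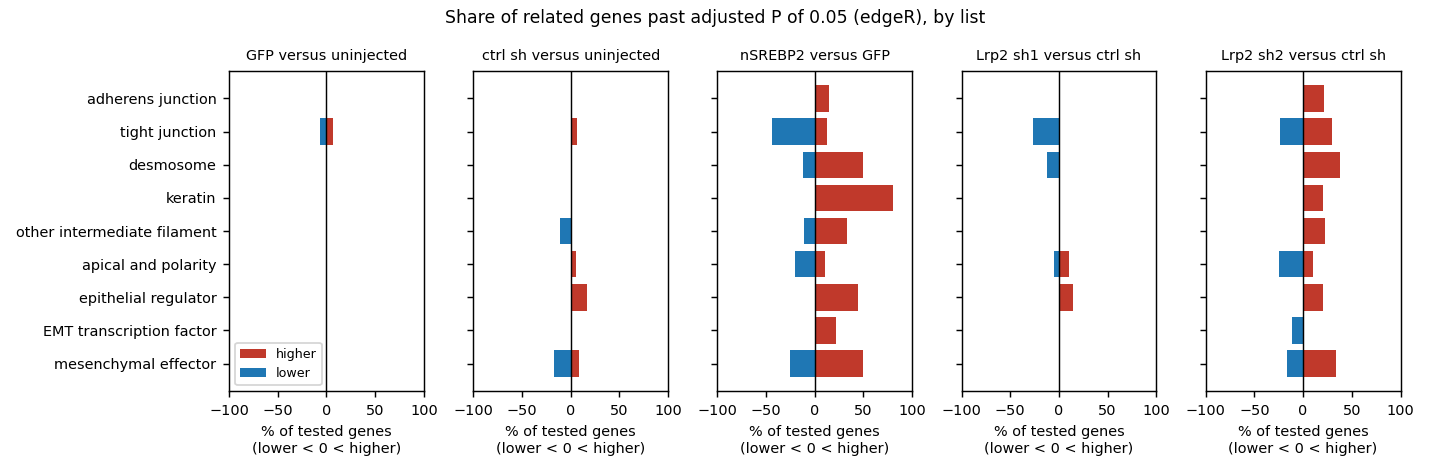
Share of the tested genes of 9 lists that passed (adjusted *P* under 0.05 by edgeR), as a percentage to the right of 0 for higher and to the left for lower, in 5 comparisons. For the control vectors few bars appear. With nSREBP2, 8 of 10 tested keratins and 4 of 8 desmosome genes were higher and 1 desmosome gene was lower. Several keratins were tested only because of their level with nSREBP2. Tight junction genes were lower more often than higher with nSREBP2 (7 and 2) and *Lrp2* sh1 (4 and 0). Over all genes, 21% passed with nSREBP2 and 5.33% with *Lrp2* sh1, in either direction.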

How the data were processed

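RNA-seq of RPE from 18 mice was analysed, with 3 libraries in each of 6 groups taken from the sample labels. Reads had been aligned to GRCm38 and assigned to genes by the authors with STAR 2.7.3a, and the deposited table gives unnormalized counts. The annotation and the strand setting are not given in the sources used here, so overlapping genes have uncertain counts. The control hairpin, labelled by its target LacZ, was taken as ctrl sh.

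CPM were computed with TMM factors from all 18 libraries. The limit that a count of 0 allows, 3 counts, was 0.216 to 0.327 CPM. For every comparison, edgeR 4.0.16 in R 4.3.3 was run on the 6 libraries involved (filterByExpr, TMM, glmQLFit, glmQLFTest), with Benjamini-Hochberg adjustment over all genes tested. SEs were derived from the log2FC and F, and 95% intervals from the SEs with 4 degrees of freedom. The scripts were tested on simulated data. By a chi-square test of counts, no replicates agreed within sampling noise (lowest value 3.57 per degree of freedom).

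The 10 genes and the lists were chosen with earlier results of these data known. Genes named were the 10 and, per list and comparison, the 2 passing genes with the largest absolute log2FC at an average log2 CPM of at least 1. *Ocln*, *Krt7*, *Krt14*, *Snai1*, *Zeb1*, *Cldn1*, *Cldn5*, *Cldn7*, *Jam3* and *Acta2* are also given where this rule does not name them, and were chosen after their values were seen, as were the ctrl sh versus GFP comparison and the contrast of keratin responses. Alternatives were DESeq2 1.42.0, its size factors in edgeR, no filter, a minimum of 10 counts per library, one fit of all libraries, sex as a term, the replicate block, an absolute log2FC above 1 as well, and each library left out. Positions are from GENCODE M21 for GRCm38 and promoters from RefSeq. Marker lists (11 RPE, 7 melanocyte, 12 rod, 4 Müller glia and astrocyte, 9 endothelium, 8 fibroblast, 7 smooth muscle and pericyte, 8 macrophage, 7 surface epithelium and 6 Schwann cell genes) were summed per library. Some results of single genes and sequences are not reported here.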

Additional observations from a re-analysis of the deposited data

Results flagged for a closer look

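*Lrp2* sh2 and *Lrp2* sh1 share a control, and the log2 difference between them was tested directly. It passed for *Krt8* (2.02, higher in 3 of 3 libraries of sh2), *Krt18* (1.24), *Cdh2* (0.51) and *Vim* (0.43), each without overlap between the hairpins. The control vectors also differed, with *Cdh3* (1.77) and *Cdh2* (0.33) higher with ctrl sh than with GFP, again without overlap.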

How the results depend on the processing

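The members' numbers of passing genes moved by more than 1.5 times under these settings. Brackets give the passing genes among all genes tested in the same comparison and setting. Requiring an absolute log2FC above 1 as well left *Krt8* and *Krt18* in nSREBP2 versus GFP (1195 of 17927), *Lrp2* sh2 versus ctrl sh (861 of 18089) and *Lrp2* sh2 versus *Lrp2* sh1 (922 of 17975). The same 2 members were left in nSREBP2 versus uninjected (1900 of 17983) and *Lrp2* sh2 versus uninjected (1466 of 18223). This limit left 1 in ctrl sh versus GFP (162 of 18018) and 0 in *Lrp2* sh1 versus uninjected (1171 of 17788). All 18 libraries in one fit gave 3 members in nSREBP2 versus GFP (4162 of 19744) and 1 in ctrl sh versus uninjected (2870 of 19744). The same fit gave 2 in *Lrp2* sh1 versus uninjected (5678 of 19744) and 1 in ctrl sh versus GFP (589 of 19744). With sex as a term the last 3 were 1 (2456 of 19744), 2 (5181 of 19744) and 1 (596 of 19744). DESeq2 gave 1 in nSREBP2 versus uninjected (4210 of 21767), 0 in *Lrp2* sh1 versus uninjected (3714 of 18298) and 4 in ctrl sh versus GFP (656 of 18441). Without a filter on low counts there was 1, *Cdh3*, in GFP versus uninjected (1093 of 33308) and 1 in ctrl sh versus uninjected (1736 of 33227). There were 2 in *Lrp2* sh1 versus uninjected (4443 of 33120) and 4 in ctrl sh versus GFP (939 of 33290). With the replicate number as a block there were 2 in nSREBP2 versus uninjected (3728 of 17983) and 2 in *Lrp2* sh1 versus uninjected (3977 of 17788). The block gave 4 in ctrl sh versus GFP (670 of 18018). In nSREBP2 versus GFP (3229 of 17927), *Cdh1* (adjusted *P* = 0.0482 by edgeR) and *Cldn19* (0.0457) also passed. In none of the 10 comparisons was the correlation of same-numbered libraries over 0.1 in each of the 3 pairs (r from -0.259 to 0.265), although it was above 0 in each pair of GFP versus uninjected (0.0148 to 0.129), *Lrp2* sh1 versus uninjected (0.0849 to 0.24) and ctrl sh versus GFP (0.087 to 0.207), so by this limit the numbers do not pair the mice and the block stands only here. With 1 library left out at a time, the members passing were 4 to 6 in nSREBP2 versus GFP, 0 to 1 in *Lrp2* sh1 versus ctrl sh, 3 to 5 in *Lrp2* sh2 versus ctrl sh, 0 to 1 in GFP versus uninjected, 0 each time in ctrl sh versus uninjected, 1 to 6 in nSREBP2 versus uninjected, 0 to 3 in *Lrp2* sh1 versus uninjected, 4 to 5 in *Lrp2* sh2 versus uninjected, 4 to 5 in *Lrp2* sh2 versus *Lrp2* sh1, 0 to 1 in ctrl sh versus GFP and 6 to 7 in the test of any difference among the 6 groups. The highest counts of nSREBP2 and *Lrp2* sh1 against uninjected libraries (6 and 3) came without uninjected replicate 1, and the lowest of *Lrp2* sh1 (0) without any of its own libraries in turn. Over all genes, the passing numbers also moved by more than 1.5 times. With the log2FC limit as well they were 1195 in place of 3770 in nSREBP2 versus GFP, 177 in place of 949 with *Lrp2* sh1 and 861 in place of 3268 with *Lrp2* sh2. Sex as a term gave 2178 for nSREBP2. For *Lrp2* sh1 there were 1441 without the filter and 492 with the block. For GFP versus uninjected, 442 became 841 by DESeq2 and 1722 in one fit of all libraries, and for ctrl sh versus uninjected 1157 became 2870 in one fit and 244 with the block. With 1 library left out, they were 2481 (without GFP replicate 2) to 4097 in nSREBP2 versus GFP, 364 (without *Lrp2* sh1 replicate 3) to 1298 in *Lrp2* sh1 versus ctrl sh, 2019 (without ctrl sh replicate 3) to 2727 in *Lrp2* sh2 versus ctrl sh, 66 (without GFP replicate 2) to 740 (without uninjected replicate 1) in GFP versus uninjected, 140 (without ctrl sh replicate 2) to 998 in ctrl sh versus uninjected, and 217 (without GFP replicate 2) to 430 in ctrl sh versus GFP, where all libraries gave 483. They were also more than 1.5 times lower without *Lrp2* sh1 replicate 1 (396) or 2 (372) or ctrl sh replicate 3 (458) in *Lrp2* sh1 versus ctrl sh, and without *Lrp2* sh2 replicate 2 (2175) in *Lrp2* sh2 versus ctrl sh. The same held in GFP versus uninjected without GFP replicate 1 (110) or uninjected replicate 2 (160) or 3 (117), in ctrl sh versus uninjected without ctrl sh replicate 1 (690) or 3 (232) or uninjected replicate 3 (397), and in ctrl sh versus GFP without GFP replicate 1 (245) or ctrl sh replicate 2 (307) or 3 (251). The numbers were 3227 to 4713 in nSREBP2 versus uninjected, 2266 to 4101 in *Lrp2* sh1 versus uninjected (4354 with all libraries; lowest without its own libraries), 2656 to 4032 in *Lrp2* sh2 versus uninjected (4138; lowest without its replicate 3 or 2) and 2626 to 3705 in *Lrp2* sh2 versus *Lrp2* sh1 (4029; lowest without *Lrp2* sh1 replicate 2). The cause of these changes was not tested.

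Some log2FC values changed sign, none of which passed before or after. Without a filter on low counts, the values were *Cdh3* 0.0003 in *Lrp2* sh1 versus ctrl sh, *Tjp1* 0.021 in ctrl sh versus uninjected, *Tjp1* 0.024 in *Lrp2* sh1 versus uninjected. With the replicate block, the values were *Cdh3* 0.0303 in *Lrp2* sh1 versus ctrl sh, *Cldn19* 0.086 in *Lrp2* sh2 versus uninjected. With sex as a term, the values were *Cdh3* -0.21, *Cldn19* 0.28, *Ezr* -0.16 in *Lrp2* sh2 versus ctrl sh, *Krt8* 0.073, *Ezr* 0.012 in GFP versus uninjected, *Cdh1* 0.061, *Tjp1* 0.029, *Cldn19* -0.019 in ctrl sh versus uninjected, *Cldn19* 0.38 in nSREBP2 versus uninjected, *Tjp1* 0.015 in *Lrp2* sh1 versus uninjected, *Cldn19* 0.26 in *Lrp2* sh2 versus uninjected, *Cdh3* -0.21, *Cldn19* 0.11 in *Lrp2* sh2 versus *Lrp2* sh1. By DESeq2, the values were *Tjp1* 0.019 in ctrl sh versus uninjected, *Tjp1* 0.017 in *Lrp2* sh1 versus uninjected. With all 18 libraries in one fit, the value of *Tjp1* was 0.004 in ctrl sh versus uninjected. With 1 library left out, the ranges that crossed 0 were as follows. In nSREBP2 versus GFP they were *Cdh3* -0.36 to 0.22, *Tjp1* -0.097 to 0.0001. In *Lrp2* sh1 versus ctrl sh they were *Cdh3* -0.17 to 0.29, *Krt18* -0.19 to 0.0404, *Vim* -0.017 to 0.18, *Tjp1* -0.045 to 0.013. In *Lrp2* sh2 versus ctrl sh they were *Ezr* -0.069 to 0.26, *Cdh3* -0.057 to 0.39. In GFP versus uninjected they were *Cdh1* -0.097 to 0.18, *Cdh2* -0.20 to 0.087, *Krt18* -0.017 to 0.63, *Krt8* -0.43 to 0.22, *Ezr* -0.36 to 0.043, *Vim* -0.0197 to 0.17, *Snai2* -0.068 to 0.22, *Tjp1* -0.026 to 0.059. In ctrl sh versus uninjected they were *Tjp1* -0.025 to 0.016, *Cldn19* -0.062 to 0.82, *Snai2* -0.19 to 0.096, *Cdh1* -0.17 to 0.11. In nSREBP2 versus uninjected they were *Cldn19* -0.51 to 0.45. In *Lrp2* sh1 versus uninjected they were *Krt18* -0.023 to 0.62, *Tjp1* -0.034 to 0.015, *Cdh1* -0.29 to 0.0072. In *Lrp2* sh2 versus uninjected they were *Cldn19* -0.26 to 0.63, *Tjp1* -0.11 to 0.0003. In *Lrp2* sh2 versus *Lrp2* sh1 they were *Snai2* -0.29 to 0.036.

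The members had at least 31 counts in every library, and the lowest was *Cldn19* in nSREBP2 replicate 3. How far depth or the 3 mice per group limited small changes was not tested. The SEs of *Krt8* and *Krt18* with nSREBP2 were larger against uninjected libraries (0.35 for both) than against GFP (0.21 and 0.18). The count table holds no reads, so the strand and the handling of shared reads could not be checked.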

Other observations

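In every library of the hairpin vectors *Ezr* was above each nSREBP2 library: its lowest level with a hairpin was 246 CPM and its highest with nSREBP2 was 164 CPM. This was not particular to the hairpins. The GFP libraries (173 to 232 CPM) and uninjected replicates 2 and 3 (261 and 272 CPM) were also above nSREBP2, and uninjected replicate 1 (141 CPM) was not. *Krt8* in ctrl sh (64.8 to 88.8 CPM) was above GFP (34.1 to 56.2 CPM) without overlap, but did not pass by edgeR (log2FC 0.66 ± 0.18, adjusted *P* = 0.12). *Krt18* overlapped between these groups (111 to 154 and 93.7 to 148 CPM, log2FC 0.05 ± 0.17).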
